A study of Rattus norvegicus with 9 samples.

Results

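The renin-angiotensin system was followed in fetal rat lungs through 8 genes: Agt, Ace, Enpep, Agtr1a, Agtr2, Mas1, Atp6ap2 and Agtrap. They were taken by symbol, and all 8 were found among the 17465 genes of the deposited table. The system turns a circulating precursor, angiotensinogen, into short peptides. Angiotensinogen is cut to angiotensin I, converting enzyme trims that to angiotensin II, and further peptidases shorten or inactivate it. Angiotensin II acts through a type 1 receptor, which raises vessel tone and drives growth of smooth muscle and fibroblasts, and through a type 2 receptor, which often opposes the first and is abundant in fetal mesenchyme. The lung is a classical site of converting enzyme, which sits on the endothelium of its capillaries.

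The 9 lungs were of Sprague-Dawley rats and formed 3 groups of 3 libraries: untreated control lungs, untreated hypoplastic lungs, and hypoplastic lungs given AFSC-EVs, extracellular vesicles that amniotic fluid stem cells release. The hypoplasia is attributed in the study's title to oligohydramnios, a lack of amniotic fluid. The sources used here do not give fetal age, vesicle dose, route or timing, or which lungs shared a litter, so the p-values measure only the spread between these 9 libraries. Library totals ran from 56922779 to 88243188 estimated counts. As a marker of lung tissue the surfactant gene Sftpc had a mean of 823, 408 and 640 CPM (counts per 1000000 counts of the TMM-scaled library total) in control, hypoplastic and treated lungs. By Xist and Y-linked genes, 2 control, 1 hypoplastic and 1 treated lung were male.

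Some libraries stood apart in ways that touch the genes described here. Hypoplastic libraries 1 and 2 held heart muscle transcripts: 6 heart markers summed to 131 and 66.5 CPM there and to between 2.36 and 9.61 CPM in the other 7 libraries. In hypoplastic library 2 the stromal genes Dcn and Lum stood at 147 and 75.05 CPM, against at most 13.3 and 6.28 CPM elsewhere. Control library 2 had the lowest sums of pericyte markers (226 CPM) and of macrophage markers (26.9 CPM). It had the highest sum of alveolar type II markers (5690 CPM). These are bulk samples, in which fewer cells of a type and less RNA per cell cannot be told apart.

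**Figure D1:**
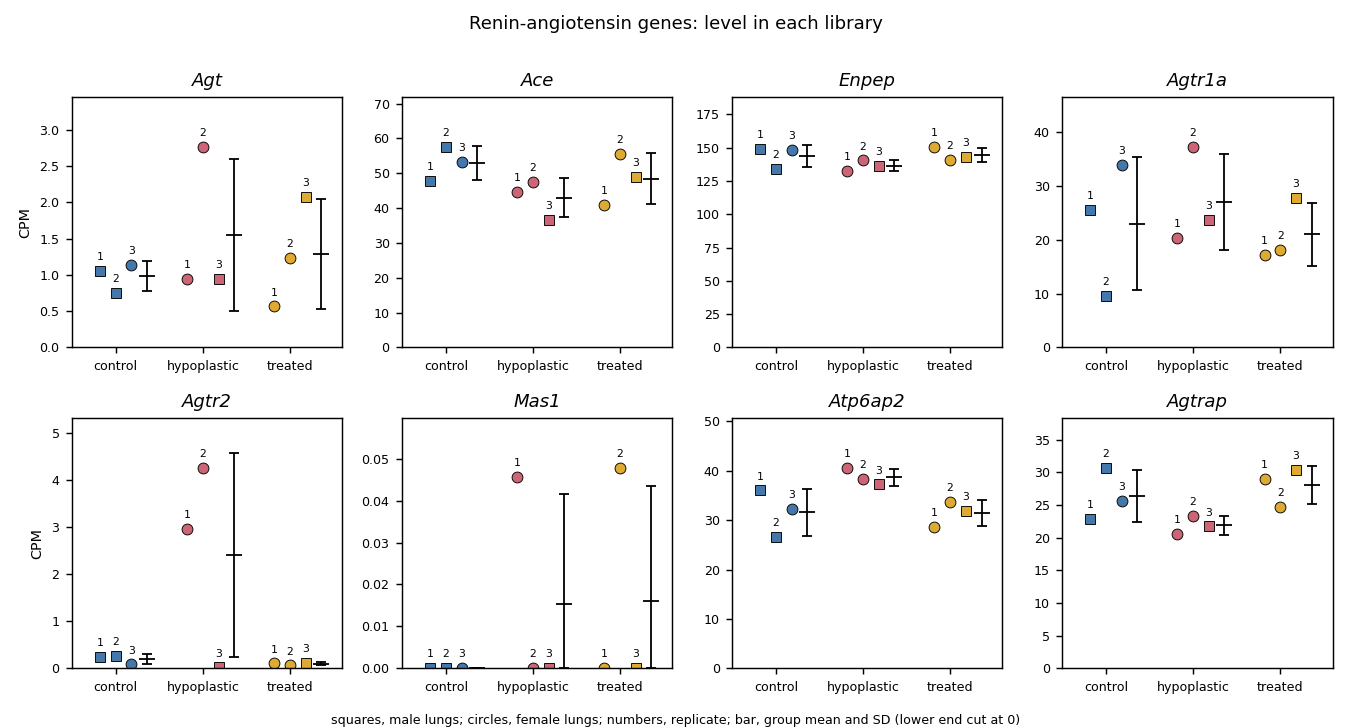
Level of each of the 8 genes in CPM on linear axes from 0, with 3 libraries per group (squares male, circles female, numbers the replicate) and the group mean and SD as bars. Agtr2 was high in 2 of 3 hypoplastic lungs, Enpep was nearly level across groups, and Mas1 was at 0 in 7 of 9 libraries.

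Of the 8 genes, 7 passed the filter on low counts and were tested, and Mas1 did not. In hypoplastic against control lungs edgeR's quasi-likelihood test called 0 of the 7 at a Benjamini-Hochberg adjusted p under 0.05, where it called 0.00771% of the 12966 genes tested. Agtr2 and Atp6ap2, 2 of the 7, had an unadjusted p under 0.05, as did 12.4% of all genes. The groups did not overlap for 2 of the 7, Ace and Atp6ap2, against 16.7% of all genes. Among the 7 log2 fold changes 4 were above 0 (51.9% of all genes were), with a median of 0.23 beside 0.013 for all genes. Without control library 2 the median was -0.12, and without hypoplastic library 2 it was -0.07.

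Between treated and hypoplastic lungs edgeR again called 0 of 7 genes, and 0% of all genes. Agtr2, Atp6ap2 and Agtrap, 3 of the 7, had an unadjusted p under 0.05, as did 5.56% of all genes. The 3 genes whose groups did not overlap were Atp6ap2, Enpep and Agtrap, against 9.81% of all genes. The median log2 fold change of the 7 was -0.28, beside -0.010 for all genes, and 3 were above 0 (48.1% of all genes). Without hypoplastic library 2 that median was 0.11. Between treated and control lungs 0 of 7 were called (0% of all genes), 0 had an unadjusted p under 0.05 (4.17% of all genes), and the groups overlapped for each of the 7 (9.39% of all genes did not overlap). DESeq2 called 1 of the 7, Agtr2, in the first 2 comparisons and 0 in the last, where it called 1.56%, 0.131% and 0.108% of all genes, and limma voom called 0 in each. A joint test of any difference among the 3 groups called 0 of 7 by edgeR (0.00771% of all genes), with 1 of 7, Agtr2, at an unadjusted p under 0.05 (8.03% of all genes). The first 2 comparisons share the hypoplastic libraries, so opposite signs in them are not independent.

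**Figure D2:**
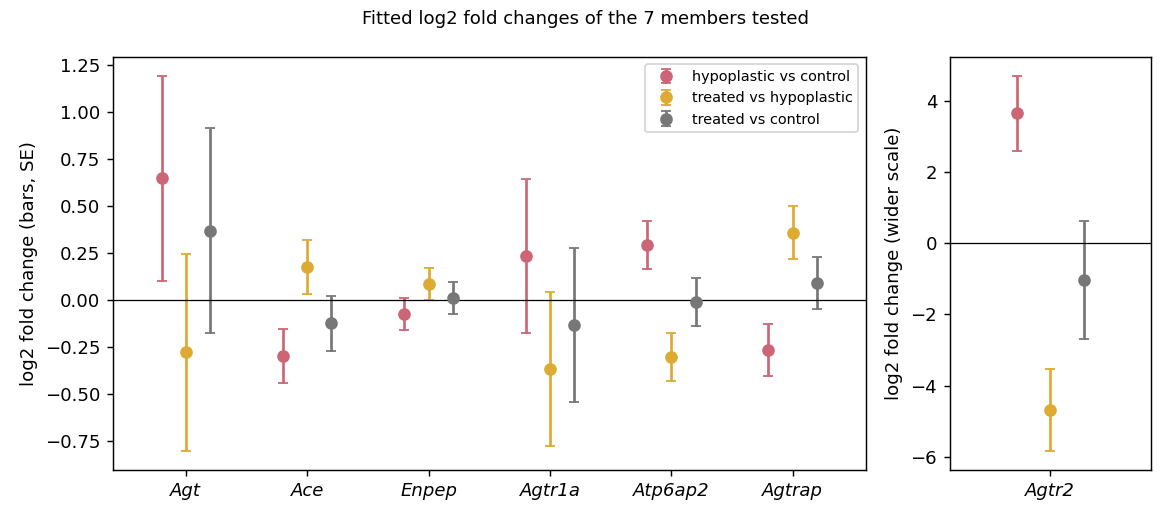
Fitted log2 fold changes (vertical axes, bars the SE) of the 7 tested genes in the 3 comparisons, with Agtr2 on a wider scale at the right. The changes of Ace, Enpep, Atp6ap2 and Agtrap stayed within 0.36 of 0, those of Agt and Agtr1a had wide errors, and Agtr2 was at 3.66 and -4.69 in the 2 comparisons with hypoplastic lungs.

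The precursor came first. Agt (Gene ID 24179) encodes angiotensinogen, which is made mostly by the liver and, at lower levels, within other tissues. It had between 42 and 169 estimated counts per library. In CPM it stood at 1.06, 0.749 and 1.14 in control, 0.946, 2.76 and 0.941 in hypoplastic and 0.566, 1.23 and 2.07 in treated libraries. Hypoplastic library 2 and treated library 3 were high, and all 3 groups overlapped. The order of the means was hypoplastic (1.55 CPM ± 1.05, SD, n = 3), treated (1.29 ± 0.754, SD, n = 3) and control (0.982 ± 0.206, SD, n = 3), and no neighbours in it differed beyond their spread. The log2 fold change of hypoplastic against control was 0.65 (SE 0.55, edgeR adjusted p 0.653), and it was -0.07 without hypoplastic library 2.

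Liver markers were near 0 beside Agt: Fgb was at 0 in all 9 libraries and Alb was at most 0.0357 CPM. The exception was control library 2, in which Apoa1 and Apob stood at 5.65 and 6.60 CPM and Agt was the lowest of the control libraries. The genes whose log2 CPM followed Agt most closely over the 9 libraries were Arhgap25 (Pearson r 0.965) and B2m (r 0.940), a subunit of MHC class I molecules. These were picked as the highest of 9563 genes searched, so their r is a description. The 7 macrophage markers summed to between 26.9 and 101 CPM in control, 75.3 and 234 in hypoplastic and 67.1 and 195 in treated lungs, highest in hypoplastic library 2 and treated library 3 as Agt was. Among them Marco, a marker of alveolar macrophages, was at 0 in 8 of 9 libraries. The part of these cells in the level of Agt was not tested.

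The RNA of converting enzyme had a lower mean in hypoplastic than in control lungs, a difference that did not pass the test. Ace (Gene ID 24310) makes angiotensin II and also degrades bradykinin. It stood at 47.9, 57.5 and 53.1 CPM in control, 44.7, 47.4 and 36.7 in hypoplastic and 40.8, 55.6 and 49.0 in treated libraries. Every hypoplastic library lay below every control library, and the treated libraries overlapped both groups. The log2 fold change of hypoplastic against control was -0.30 (SE 0.14, edgeR adjusted p 0.429), with means of 42.9 CPM ± 5.58 and 52.8 CPM ± 4.84 (SD, n = 3). Treated lungs, at 48.4 CPM ± 7.40 (SD, n = 3), lay between and differed from neither beyond the spread, with log2 differences of 0.18 from hypoplastic and -0.12 from control. With 1 library left out these ran from 0.066 (without treated library 2) to 0.29 (without treated library 1), and from -0.23 to -0.015 without the same libraries. The value of hypoplastic against control was -0.20 without hypoplastic library 3.

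The 8 endothelial markers, which mark the cells that carry most converting enzyme, summed to 1009 to 1250 CPM in control, 990 to 1186 in hypoplastic and 916 to 1218 in treated lungs. Hypoplastic library 3 and treated library 1 were lowest in their groups both in this sum and in Ace, while control library 2 was lowest in its group in the sum (1009 CPM) and highest of all 9 libraries in Ace. Whether the endothelial share bears on Ace was not tested. Acer2 and Lnx1 followed Ace most closely over the 9 libraries, each with r 0.913.

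Enpep (Gene ID 64017) encodes aminopeptidase A, which converts angiotensin II to angiotensin III. It varied least within groups among the 7 tested genes. It was at 149, 134 and 148 CPM in control, 133, 140 and 136 in hypoplastic and 150, 141 and 143 in treated libraries. The coefficient of variation within a group was 5.92% in control, 2.82% in hypoplastic and 3.56% in treated lungs. The treated libraries all lay above the hypoplastic ones, but by 0.08 on the log2 scale (SE 0.085, edgeR adjusted p 0.943), and control lay across both. Mrpl2 (r 0.929) and Src (r 0.901) had the pattern most like it.

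The receptors come next. The promoters of the pair of angiotensin II receptors are shown because Agtr2 had the largest fitted differences among the 7 tested genes and Agtr1a binds the same peptide. Each is the stretch from 250 bases before to 50 bases after the RefSeq start in build GRCr8, printed 5′ to 3′ on the strand of the gene. Capitals mark matches on either strand to TATAAA or TATATA, to CCAAT (or its reverse complement) and to GGGCGG (or its reverse complement). Agtr1a lies at chr17:34435383-34435682 on the minus strand and Agtr2 at chrX:116914070-116914369 on the plus strand.
Agtr1a: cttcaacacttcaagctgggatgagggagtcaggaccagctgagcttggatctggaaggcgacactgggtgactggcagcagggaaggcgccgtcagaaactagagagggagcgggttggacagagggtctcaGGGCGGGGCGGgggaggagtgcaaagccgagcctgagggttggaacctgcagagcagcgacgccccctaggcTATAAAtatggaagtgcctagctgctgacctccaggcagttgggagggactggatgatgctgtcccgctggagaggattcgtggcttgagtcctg
Agtr2: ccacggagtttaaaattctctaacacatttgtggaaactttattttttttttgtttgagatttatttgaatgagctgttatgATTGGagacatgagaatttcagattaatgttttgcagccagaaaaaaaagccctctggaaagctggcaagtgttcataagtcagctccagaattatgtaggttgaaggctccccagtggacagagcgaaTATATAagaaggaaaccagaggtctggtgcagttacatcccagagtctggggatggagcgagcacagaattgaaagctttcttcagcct
The Agtr1a stretch held a TATAAA match 45 bases before the start and overlapping GGGCGG matches 117 and 112 bases before it. The Agtr2 stretch held TATATA 39 bases before the start and the reverse of CCAAT 168 bases before it, and no GGGCGG. Their GC content was 60.7% and 40.3%, against a median of 52.3% over 27457 rat promoters of the same length. TATAAA was found in 14.3% of those promoters, TATATA in 6.12%, CCAAT in 37.7% and GGGCGG in 34.9%. These matches describe letters only.

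Agtr1a (Gene ID 24180), the main type 1 receptor gene of rats, varied more within groups than between them. It was at 25.5, 9.58 and 34.0 CPM in control, 20.4, 37.3 and 23.6 in hypoplastic and 17.2, 18.1 and 27.8 in treated libraries. Control library 2 was lowest and hypoplastic library 2 highest, and all groups overlapped. The means, in order, were 27.1 CPM ± 8.94 in hypoplastic, 23.0 ± 12.4 in control and 21.0 ± 5.84 in treated lungs (SD, n = 3), none apart from its neighbour beyond the spread. The log2 fold changes were 0.23 (SE 0.41) for hypoplastic against control and -0.37 (SE 0.41) for treated against hypoplastic, with edgeR adjusted p of 0.851 and 0.948. The first was -0.14 without control library 2, -0.07 without hypoplastic library 2 and 0.62 without control library 3. Leaving out hypoplastic library 2 gave -0.067 for the second, and leaving out treated library 3 gave -0.62.

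The pattern of Agtr1a was followed most closely by Notch3 (r 0.989 over 9 libraries), a receptor of pericytes and vascular smooth muscle cells, and by Plxnd1 (r 0.979), a semaphorin receptor. Notch3 ran from 93.1 CPM in control library 2 to 193 CPM in hypoplastic library 2, the same libraries in which Agtr1a was lowest and highest. After the group means were subtracted the correlation with Notch3 was 0.989. Notch3 and Plxnd1 were picked as the highest of 9563 genes searched over these same libraries, so each r is a description. Notch3 is one of 8 pericyte markers, whose sum ran from 226 to 472 CPM in control, 365 to 498 in hypoplastic and 294 to 462 in treated lungs. None of the 8 was at 0 in any library. Not all of them followed Agtr1a. Cspg4 (94.2 and 80.1 CPM), Rgs5 (7.73 and 6.53) and Cox4i2 (13.3 and 11.3) were higher in hypoplastic library 1 than in library 2. The rest of the 8 were higher in library 2, as Agtr1a was. How far the share of pericytes sets Agtr1a was not tested. The second rat type 1 receptor gene, Agtr1b, had at most 9 counts in any library and was not tested. Reads shared by these closely related genes could have been split in the counting, and the sources used here do not say how.

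**Figure D3:**
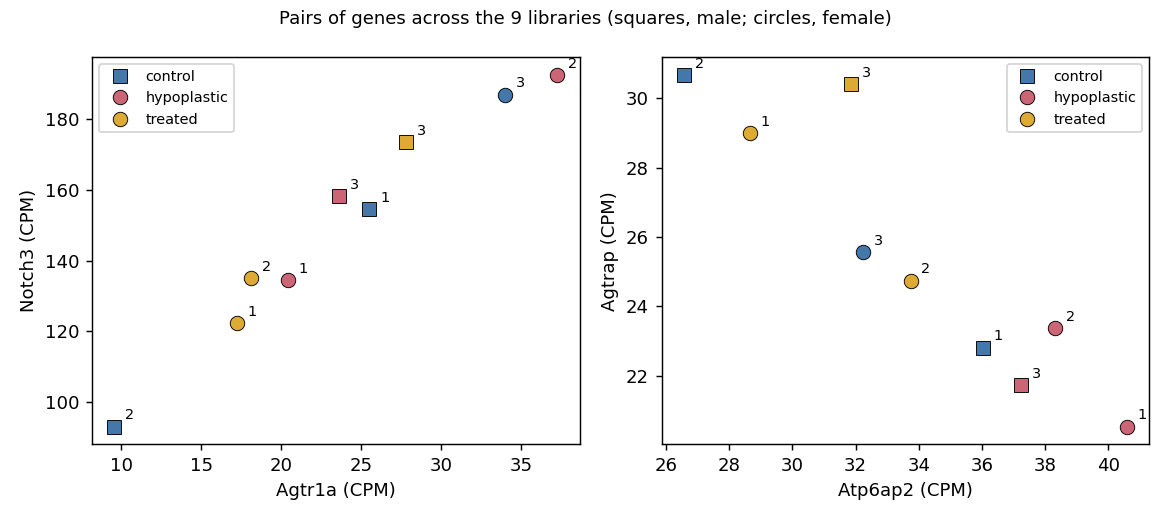
Each point is 1 library (colour the group, squares male, circles female, number the replicate), with both axes in CPM on linear scales that do not start at 0. Agtr1a and Notch3 ran together from control library 2 to hypoplastic library 2, and Agtrap was high where Atp6ap2 was low.

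Agtr2 (Gene ID 24182), the type 2 receptor gene, which lies on the X chromosome, had the largest fitted changes among the 8 genes, and they came from 2 lungs. The estimated counts were 16, 15 and 6 in control, 194, 261 and 1 in hypoplastic and 8, 5 and 8 in treated libraries. In CPM these were 0.245, 0.268 and 0.0814, then 2.96, 4.26 and 0.0181, then 0.105, 0.0598 and 0.118. Hypoplastic libraries 1 and 2 stood above all the others, and hypoplastic library 3 was the lowest of the 9. The hypoplastic group therefore overlapped both other groups at its lower end.

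The log2 fold change of Agtr2 was 3.66 (SE 1.05, edgeR unadjusted p 0.00626, adjusted p 0.317) in hypoplastic against control. It was -4.69 (SE 1.15, unadjusted p 0.00241, adjusted p 0.826) in treated against hypoplastic lungs. Without hypoplastic library 3 edgeR called it in both comparisons, at 4.22 (adjusted p 0.00602) and -5.26 (adjusted p 0.00279), where it called 0.342% and 0.334% of all genes. DESeq2 called it with all 9 libraries, at 3.62 (adjusted p 0.0460) and -4.69 (adjusted p 0.0175), and limma voom did not, at 2.11 (adjusted p 0.711) and -3.01 (adjusted p 0.965). Agtr2 did not pass the filter of at least 1 CPM in 3 libraries, nor that of the 6-library fits of treated against hypoplastic and treated against control. Over all alternatives that gave a value and kept hypoplastic library 1 or 2, the sign was the same in both comparisons. With hypoplastic libraries 1 and 2 both left out, the hypoplastic group was the 1 count of library 3, which is under the 3 counts taken as the floor, and no fold is given.

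The libraries with high Agtr2 were those with heart muscle transcripts. The genes most like it over the 9 libraries were Actc1 (r 0.945), cardiac actin, and Myh6 (r 0.916), the atrial myosin heavy chain. The libraries fell into 2 clusters, so that these r values serve only to name the genes. Actc1 was at 111 and 47.0 CPM in hypoplastic libraries 1 and 2 and at most 8.44 CPM in the other 7, and Myh6 was at 70.9 and 28.2 CPM and at most 3.13 CPM. The 6 heart markers summed to 2.51 to 9.61 CPM in control, 2.95 to 131 in hypoplastic and 2.36 to 5.35 in treated lungs. Of these, Nppa was at 0 in hypoplastic libraries 1 and 3 and treated library 1, and Myl7 was at 0 in control library 3. Nppa was at 4.56 CPM in hypoplastic library 2. Actc1, Myh6, Myl7, Tnni3 and Tnnt2 were higher in hypoplastic library 1 than in library 2, while Nppa was higher in library 2, as Agtr2 was. Myh7, which was not tested, was nearly equal in them, at 26.1 and 27 estimated counts.

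Of the 7 fibroblast markers, Lum and Dcn were also high there. Lum, a proteoglycan of collagen-rich stroma, was at 6.28 and 75.05 CPM in hypoplastic libraries 1 and 2 and at most 1.48 CPM in the other 7. Dcn, decorin, was at 13.3 and 147 CPM and at most 4.82 CPM in the other 7. Both were higher in library 2 than in library 1, as Agtr2 was. The other fibroblast markers, Col1a1, Col1a2, Col3a1, Pdgfra and Tcf21, were lower in hypoplastic library 1 than in control library 3. The sum of the 7 was 4471 and 14890 CPM in hypoplastic libraries 1 and 2. It ran from 1889 to 6307 CPM in control and from 3139 to 5456 in treated lungs, so only library 2 was above that range. The part of heart or stromal tissue in the level of Agtr2 was not tested. Both lungs with high Agtr2 were female, while the female control lung was at 0.0814 CPM and the female treated lungs at 0.105 and 0.0598 CPM. With sex in the model the changes were 2.75 (edgeR adjusted p 0.584) and -4.52 (adjusted p 0.885).

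**Figure D4:**
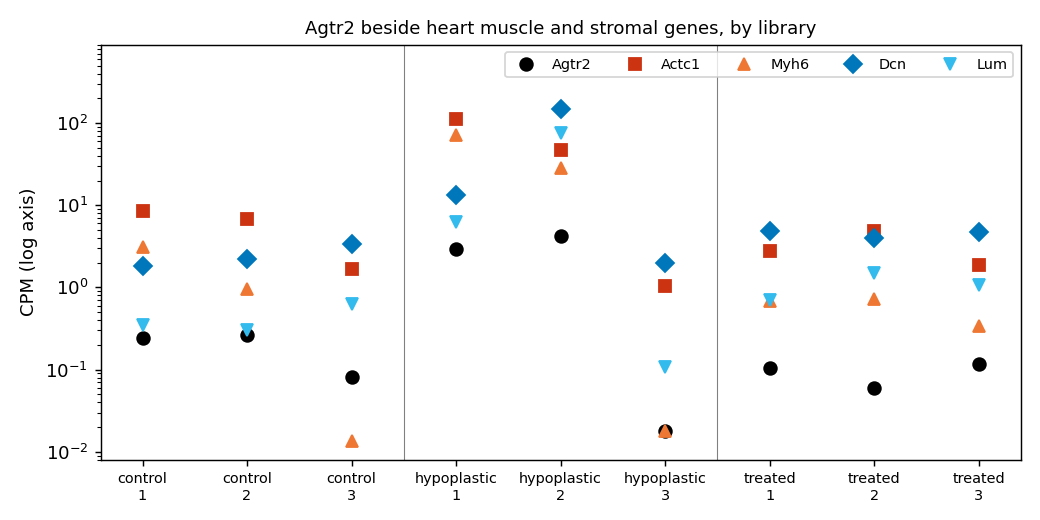
Agtr2 beside 2 heart muscle genes (Actc1, Myh6) and 2 stromal genes (Dcn, Lum) in each of the 9 libraries, in CPM on a log axis. All 5 were higher in hypoplastic libraries 1 and 2 than in any other library, and Agtr2 was lowest in hypoplastic library 3.

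The balance of the receptors within a lung was described by the log2 ratio of Agtr1a to Agtr2 counts, of which only differences between lungs can be read because the lengths of the genes differ. The ratios were 6.66, 5.12 and 8.59 in control, 2.79, 3.13 and 9.77 in hypoplastic and 7.27, 8.11 and 7.80 in treated libraries. Hypoplastic libraries 1 and 2 were the lowest of the 9. The value of hypoplastic library 3 rests on 1 Agtr2 count, under the floor, and is not precise. The difference was -1.56 for hypoplastic against control and 2.5 for treated against hypoplastic lungs. With 1 library left out the first ran from -0.34 (without hypoplastic library 1) to -3.83 (without hypoplastic library 3), and the second from 1.28 to 4.77 without the same libraries. Two-sided exact permutation tests gave p of 0.60 and 0.40 (adjusted p 0.60 for each over 3 tests), in a design of 3 against 3 whose smallest p is 0.10.

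Mas1 (Gene ID 25153) encodes the receptor of angiotensin-(1-7), a peptide whose actions often oppose those of angiotensin II. It had 3 counts in hypoplastic library 1, 4 counts in treated library 2 and 0 in the other 7 libraries. A count of 0 allows a level of up to 0.0395 to 0.0543 CPM in those libraries, taking 3 counts as the floor and counting error alone. No fold is given, since each group was at or near the floor. Mrgprd, a further receptor of angiotensin peptides, had at most 3 counts in any library.

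Atp6ap2 and Agtrap had opposite orders of level over the lungs, and their promoters are shown for that reason in the same form. In addition to the letters above, CACGTG is in capitals. Atp6ap2 lies at chrX:12883621-12883920 and Agtrap at chr5:163802125-163802424 in GRCr8, both on the minus strand.
Atp6ap2: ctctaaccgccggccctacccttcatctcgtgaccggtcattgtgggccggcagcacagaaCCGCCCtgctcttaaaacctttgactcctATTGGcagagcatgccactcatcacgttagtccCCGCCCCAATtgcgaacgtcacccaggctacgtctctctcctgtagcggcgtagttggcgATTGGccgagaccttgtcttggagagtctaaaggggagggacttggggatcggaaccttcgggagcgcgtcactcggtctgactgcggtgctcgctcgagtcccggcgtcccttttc
Agtrap: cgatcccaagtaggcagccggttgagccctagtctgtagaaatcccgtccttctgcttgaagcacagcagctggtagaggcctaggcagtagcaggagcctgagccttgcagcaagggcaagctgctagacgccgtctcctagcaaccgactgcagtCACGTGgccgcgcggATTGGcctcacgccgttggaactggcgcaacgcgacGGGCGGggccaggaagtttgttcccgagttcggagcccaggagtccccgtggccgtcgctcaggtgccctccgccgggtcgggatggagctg
Neither stretch held TATAAA or TATATA. Atp6ap2 held 3 CCAAT matches and 2 GGGCGG matches, of which 1 of each overlapped, and Agtrap held 1 of each and a CACGTG 93 bases before the start, a motif found in 6.65% of the 27457 promoters. Each stretch held 25 CpG dinucleotides, above the upper quartile of 20 over all promoters, while Agtr1a held 11 and Agtr2 held 3.

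Atp6ap2 (Gene ID 302526) encodes the prorenin receptor, which is also an accessory subunit of the vacuolar proton pump. It was at 36.02, 26.6 and 32.2 CPM in control, 40.6, 38.3 and 37.3 in hypoplastic and 28.7, 33.7 and 31.9 in treated libraries. Every hypoplastic library was above every other library, by a narrow margin over control library 1. The order of means was hypoplastic (38.7 CPM ± 1.71), control (31.6 ± 4.76) and treated (31.4 ± 2.58; SD, n = 3 each), and the last pair did not differ beyond their spread. The log2 fold change was 0.29 (SE 0.13, edgeR unadjusted p 0.0465, adjusted p 0.398) in hypoplastic against control and -0.30 (SE 0.13, unadjusted p 0.0412, adjusted p 0.896) in treated against hypoplastic lungs. The first was 0.18 without control library 2 and 0.40 without control library 1. Atp6ap2 is X-linked, and with sex in the model the changes were 0.28 and -0.30 (edgeR adjusted p 0.623 and 0.985).

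The other subunits of the proton pump were read from 14 genes. In hypoplastic against control 0 of 14 were called by edgeR, 8 had a log2 fold change above 0 (51.9% of all genes), and the median was 0.048. The 2 with an unadjusted p under 0.05 (12.4% of all genes) were both lower: Atp6v1a, a catalytic subunit, at -0.28 (SE 0.087, edgeR adjusted p 0.323) and Atp6v1c1 at -0.24 (SE 0.095, adjusted p 0.367). In treated against hypoplastic lungs 0 of 14 passed even the unadjusted threshold (5.56% of all genes), 3 were above 0 and 11 below (48.1% of all genes were above 0), and the median was -0.063. Atp6v0c, which forms the proton-carrying ring, had log2 fold changes of 0.12 and -0.10 in the same comparisons. The genes most like Atp6ap2 over the 9 libraries were Tm9sf4 (r 0.958) and Mettl9 (r 0.957).

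Agtrap (Gene ID 298646) encodes a protein that binds the type 1 receptor and promotes its withdrawal from the cell surface. It was at 22.8, 30.7 and 25.6 CPM in control, 20.5, 23.4 and 21.7 in hypoplastic and 29.0, 24.7 and 30.4 in treated libraries. All treated libraries lay above all hypoplastic ones, while control library 1 lay among the hypoplastic libraries. Means in order were treated (28.1 CPM ± 2.95), control (26.4 ± 3.99) and hypoplastic (21.9 ± 1.43; SD, n = 3 each), the first pair within their spread. The log2 fold change was -0.27 (SE 0.14, edgeR adjusted p 0.460) in hypoplastic against control and 0.36 (SE 0.14, unadjusted p 0.0279, adjusted p 0.896) in treated against hypoplastic lungs. Without control library 2 the first was -0.15. Ppfia1 (r 0.993) and Ctdspl (r 0.956) had the pattern most like Agtrap.

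Correlations over the 9 libraries were computed for the 15 pairs among Agt, Ace, Enpep, Agtr1a, Atp6ap2 and Agtrap, with Agtr2 left out because its libraries fell into clusters. The pair of Atp6ap2 and Agtrap had Pearson's r of -0.919 (exact permutation p 0.000463, adjusted p 0.00694 over 15 pairs) and Spearman's rho of -0.933 (exact permutation p 0.00075, adjusted p 0.0112). Without the 2 libraries farthest from the median of Atp6ap2, control 2 and hypoplastic 1, r was -0.856. After the group means were subtracted it was also -0.856, and no p-value was computed for that r. The permutations moved libraries across the groups. Their p-values therefore do not separate differences between groups from a relation within them. The share of all gene pairs with an r of this size was not computed. Other genes were closer to each of the pair, such as Tm9sf4 to Atp6ap2 (r 0.958) and Ppfia1 to Agtrap (r 0.993). Agt and Agtr1a had r of 0.690 and rho of 0.767 (exact permutation p 0.0417 and 0.0214), which did not pass over the 15 pairs (adjusted p 0.313 and 0.160). The remaining 13 pairs had adjusted p of 0.401 or higher for r and 0.484 or higher for rho.

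The rest of the pathway was read from a list of 14 further genes of angiotensin metabolism and its receptors, of which 11 were tested. In hypoplastic against control lungs edgeR called 0 of 11, and 3 had an unadjusted p under 0.05 (12.4% of all genes): Ctsg and Prcp higher and Nln lower. The median log2 fold change was 0.043, and it ran from -0.045 (without hypoplastic library 2) to 0.25 (without control library 1). In treated against hypoplastic lungs 0 were called and 1, Prcp, had an unadjusted p under 0.05 (5.56% of all genes), with a median of -0.28, or -0.098 without hypoplastic library 2. In treated against control lungs 0 were called and 1, Mme, had an unadjusted p under 0.05 (4.17% of all genes), with a median of -0.16, or -0.021 without control library 1. DESeq2 and limma voom also called 0 in each. Klk1, a kallikrein, was at 0 in all 9 libraries and was not tested.

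Prcp encodes a lysosomal carboxypeptidase that inactivates angiotensin II. It was at 78.9, 57.2 and 72.0 CPM in control, 86.5, 104 and 91.5 in hypoplastic and 66.7, 78.7 and 76.4 in treated libraries. The hypoplastic lungs thus lay above both other groups (16.7% of all genes did not overlap with control, 9.81% with treated). The log2 fold changes were 0.44 (SE 0.14, edgeR adjusted p 0.323) against control and -0.34 (SE 0.14, adjusted p 0.896) under treatment. Nln, neurolysin, which cleaves angiotensin I, had means of 38.0 CPM ± 2.40 in control, 30.6 ± 1.83 in hypoplastic and 34.1 ± 1.35 in treated lungs (SD, n = 3). Its hypoplastic and control libraries did not overlap, as for 16.7% of all genes, and the log2 fold change there was -0.31 (SE 0.099, edgeR adjusted p 0.323). Mme, neprilysin, was 0.94 lower on the log2 scale in treated than in control lungs (log2 fold change -0.94, SE 0.32, edgeR adjusted p 0.998), with overlap, and -0.59 without control library 2.

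Ctsg, a neutrophil protease that can form angiotensin II, had 10, 53.1 and 2 estimated counts in hypoplastic lungs and 5, 0 and 0 in control lungs (edgeR adjusted p 0.359). No fold is given, since 2 of the control libraries were at 0. The 5 neutrophil markers summed to 5.61 to 10.3 CPM in control, 51.8 to 87.9 in hypoplastic and 17.3 to 74.9 in treated lungs, with Elane at 0 in at least 1 library, and their part was not tested. Chymase (Cma1) and carboxypeptidase A3 (Cpa3), both products of mast cells, overlapped in every comparison. Among the 11, Lnpep, Ctsa, Prep, Thop1 and Anpep were also above a mean of 20 CPM. Lnpep, the angiotensin IV binding aminopeptidase, ran from 306 to 448 CPM over the 9 libraries and Ctsa, cathepsin A, from 155 to 209. Prep ran from 44.5 to 57.3, Thop1 from 27.4 to 42.4 and Anpep from 20.3 to 49.8, and none of the 5 had an unadjusted p under 0.05 in any comparison.

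Genes known to be induced through the type 1 receptor in other cells, though also by many other signals, were read from a list of 5. The list was chosen with earlier results of these data known, so its counts and medians are a description only. All 5 (Egr1, Ccn2, Edn1, Nox4, Rcan1) had a log2 fold change above 0 in hypoplastic against control, where 51.9% of all genes had, with a median of 0.83. In treated against control lungs it was again 5 of 5 (50.6% of all genes), with a median of 0.93, in a comparison that shares the control libraries. edgeR called 0 of 5 in each, and 3 (Egr1, Ccn2 and Edn1) had an unadjusted p under 0.05 in each, against 12.4% and 4.17% of all genes. DESeq2 called 1 of 5 (Egr1) and then 2 of 5 (Egr1 and Ccn2), and limma voom 0. Between treated and hypoplastic lungs the median was -0.027, with 0 of 5 below either threshold by edgeR. Rcan1 was nearly level, with means of 30.45, 33.11 and 30.88 CPM in control, hypoplastic and treated lungs. With 1 library left out at a time, the medians against control ran from 0.60 (without hypoplastic library 2) to 0.98 in hypoplastic and from 0.53 (without treated library 2) to 1.17 in treated lungs. Without hypoplastic libraries 1 and 2 the hypoplastic median was 0.56, with 4 of 5 above 0. The neutrophil marker sum given above was lower in every control lung than in any other lung, and its part in these levels was not tested.

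Egr1, an immediate early transcription factor, was at 17.6, 21.3 and 17.2 CPM in control, 58.4, 54.6 and 32.1 in hypoplastic and 33.8, 75.6 and 33.1 in treated libraries. All 6 hypoplastic lungs, treated or not, were above all control lungs. Of all genes, 16.7% did not overlap between hypoplastic and control lungs, and 9.39% between treated and control lungs. The log2 fold changes of Egr1 were 1.37 (SE 0.34, edgeR adjusted p 0.317) and 1.34 (SE 0.34, adjusted p 0.998). Without hypoplastic libraries 1 and 2 the first was 0.78, and without treated library 2 the second was 0.84. Ccn2, a matricellular growth factor, showed the same separation, at 43.1, 23.4 and 50.04 CPM in control, 64.5, 108 and 61.8 in hypoplastic and 111, 166 and 60.0 in treated libraries. Its log2 fold changes were 1.0 (SE 0.39, edgeR adjusted p 0.366) and 1.53 (SE 0.39, adjusted p 0.998). Edn1, the vasoconstrictor endothelin-1, was at 6.34, 3.80 and 6.63 CPM in control, 8.34, 12.9 and 8.24 in hypoplastic and 9.52, 15.8 and 6.61 in treated libraries. All hypoplastic libraries lay above all control ones, while treated library 3 overlapped control. The log2 fold changes of Edn1 were 0.81 (SE 0.34, edgeR adjusted p 0.390) and 0.93 (SE 0.34, adjusted p 0.998), and the second was 0.53 without treated library 2.

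**Figure D5:**
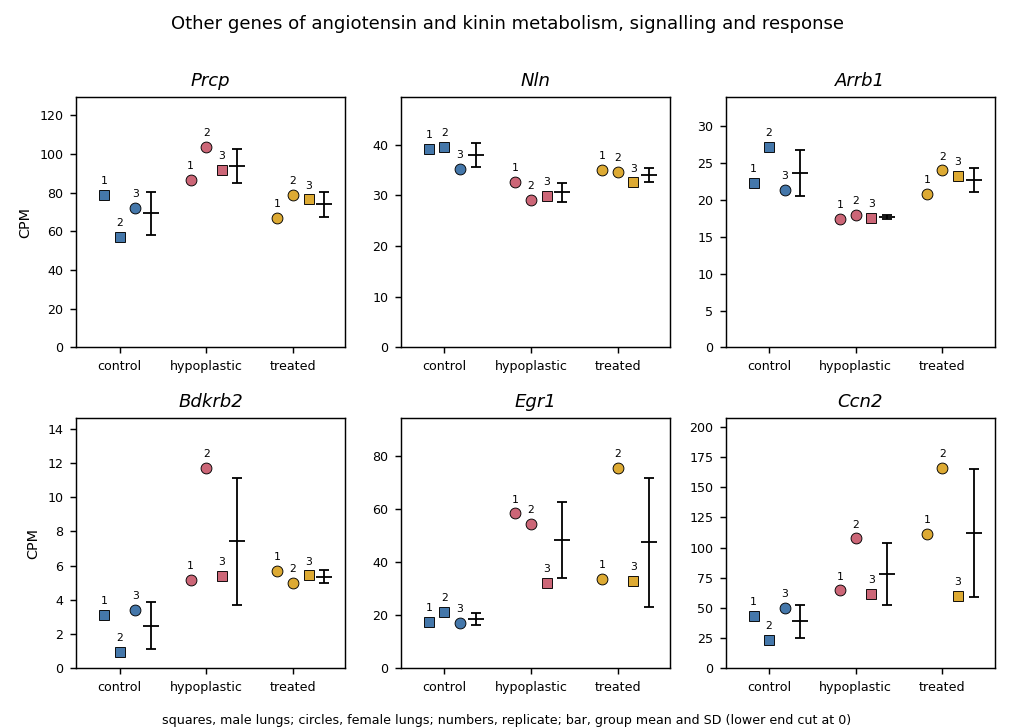
Levels of 6 other genes in CPM on linear axes from 0, with points, symbols and bars as in the plot of the 8 genes. Egr1, Ccn2 and Bdkrb2 were higher in all 6 hypoplastic lungs, treated or not, than in the 3 control lungs, while Prcp was highest and Arrb1 lowest in untreated hypoplastic lungs.

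Signalling partners of the receptors were read from 9 genes, of which edgeR called 0 in each comparison. Of these, 2 had an unadjusted p under 0.05 in hypoplasia (12.4% of all genes). Arrb1, a beta-arrestin that desensitises the type 1 receptor, was at 22.4, 27.2 and 21.4 CPM in control, 17.5, 17.96 and 17.5 in hypoplastic and 20.8, 24.0 and 23.3 in treated libraries. Its log2 fold changes were -0.42 (SE 0.12, edgeR adjusted p 0.317) and 0.36 (SE 0.12, adjusted p 0.859), without overlap of the hypoplastic libraries with either group. In the same comparisons 16.7% and 9.81% of all genes did not overlap. Zbtb16, a transcription factor that partners the type 2 receptor, was at -0.77 on the log2 scale against control in hypoplasia (SE 0.28, edgeR adjusted p 0.359), or -0.36 without control library 2. Rgs2, a brake on G-protein signalling, ran from 41.0 to 85.1 CPM over the 9 libraries, and Mtus1, which binds the type 2 receptor, from 46.6 to 76.96 CPM. Their log2 fold changes in hypoplasia were 0.25 (SE 0.23) and -0.29 (SE 0.15), with edgeR adjusted p of 0.677 and 0.470.

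The kinin genes border on this system because converting enzyme degrades bradykinin, and 6 of 7 were tested. edgeR called 0 in each comparison, and in hypoplasia 3 of 6 had an unadjusted p under 0.05 (12.4% of all genes). Bdkrb2, the constitutive bradykinin receptor, was at 3.11, 0.945 and 3.43 CPM in control, 5.17, 11.7 and 5.39 in hypoplastic and 5.69, 4.97 and 5.43 in treated libraries, with no control lung in the range of the others. Its log2 fold changes were 1.56 (SE 0.45, edgeR adjusted p 0.317, DESeq2 adjusted p 0.0379) in hypoplastic and 1.09 (SE 0.44, edgeR adjusted p 0.998) in treated against control lungs, and the second was 0.71 without control library 2. In these comparisons 16.7% and 9.39% of all genes did not overlap. Carboxypeptidase M (Cpm) and carboxypeptidase N (Cpn1), which trim kinins, had log2 fold changes of -0.77 (SE 0.26) and -0.69 (SE 0.24) in hypoplasia, with edgeR adjusted p of 0.332 and 0.336. Without control library 2 these were -0.40 and -0.42. The 7 alveolar type II markers summed to 2960 to 5690 CPM in control, 2110 to 2562 in hypoplastic and 2640 to 3663 in treated lungs. Control library 2 was the highest of all libraries in this sum, in Cpm (872 CPM) and in Cpn1 (13.6 CPM). The part of these cells in the levels of Cpm and Cpn1 was not tested.

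Downstream of angiotensin, aldosterone acts through the mineralocorticoid receptor, and 3 of 4 genes listed for it were tested. edgeR called 0 of them in each comparison (0.00771%, 0% and 0% of all genes, in the order used above). In treated against hypoplastic lungs Sgk1 and Hsd11b2 had an unadjusted p under 0.05 (5.56% of all genes). Neither overlapped there (9.81% of all genes did not). Sgk1, a kinase induced by this receptor and by glucocorticoids, was at 57.8, 67.3 and 47.0 CPM in control, 76.0, 80.5 and 58.2 in hypoplastic and 40.1, 51.8 and 43.4 in treated libraries. All treated libraries lay below all hypoplastic ones, and the log2 fold change was -0.67 (SE 0.17, edgeR unadjusted p 0.00317, adjusted p 0.826). Without hypoplastic libraries 1 and 2 it was -0.37. Hsd11b2, whose enzyme shields the receptor from glucocorticoids, ran from 0.294 to 0.843 CPM, with every treated library above every hypoplastic one (log2 fold change 0.86, SE 0.34, edgeR adjusted p 0.896). The receptor gene itself, Nr3c2, had a log2 fold change of 0.21 in hypoplastic against control and -0.19 in treated against hypoplastic lungs, and Cyp11b2, aldosterone synthase, had at most 1.4 estimated counts in any library.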

How the data were processed

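Total RNA of 9 fetal rat lungs was sequenced after ribosomal RNA depletion, and RNA was extracted on 1 day for all libraries, per the labels' protocols. The authors deposited 1 table of estimated counts for 17465 genes by NCBI Gene ID, and 19.5% of the nonzero values were whole. The submitters' processing notes name build rn7 and DESeq2. The aligner, the counting program and its treatment of shared reads were not stated. Symbols came from RefSeq for GRCr8 (99.1% of IDs matched), used for names and for promoter sequences only, which were found for 7 of the 8 genes.

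The counts were rounded and tested with edgeR 4.0.16 (TMM, filterByExpr, glmQLFit and glmQLFTest, R 4.3.3), with all 9 libraries in 1 fit and 6 residual degrees of freedom. The plan had assumed whole counts. Adjustment was by Benjamini-Hochberg over all 12966 genes tested, with a threshold of 0.05. The SE of a log2 fold change is its size divided by the square root of F and is approximate. CPM uses TMM-scaled totals, and ratios used 0.5 counts added to each gene. Alternatives were RLE factors, DESeq2 1.42.0, limma voom 3.58.1, other filters, fits of 6 libraries, a replicate block, a sex term, removal of ribosomal and 7SL rows, and each library left out. Fits were tested on simulated data with a smaller dispersion than these libraries and with changes only in genes above 5 CPM. That run does not show how well changes are found at the spread seen here or in low genes such as Agtr2. A few pathway genes and 1 planned ratio are not reported here, and list counts, medians and the adjustment of ratios leave them out. The 8 genes are named whatever their values. Pathway genes were named at an unadjusted p under 0.05 or a mean of at least 20 CPM, and like genes as the 2 of highest Pearson r (log2 CPM with a prior count of 2) among genes of at least 5 CPM. From each other list the 2 genes of highest mean CPM and the 2 of smallest p in hypoplastic against control were named. Other genes, such as Nox4 and the marker genes, were chosen after their values were seen. The members and lists were chosen with earlier results of these data known.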

Additional observations from a re-analysis of the deposited data

How the results depend on the processing

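The number of renin-angiotensin genes called was 0 in all 3 comparisons and in the joint test under RLE factors, limma voom, both other filters, fits of the 6 libraries compared, the sex term and the removal of ribosomal and 7SL rows. Agtr2 was not tested under the filter of at least 1 CPM in 3 libraries or in the 6-library fits of treated against hypoplastic and treated against control, so the 0 there leaves it out. DESeq2 called 1 (Agtr2) in hypoplastic against control and 1 in treated against hypoplastic. With 1 library left out the count was 0 to 1 in these comparisons and in the joint test, the 1 being Agtr2 without hypoplastic library 3. Over all genes edgeR called 1, 0 and 0. DESeq2 called 202, 17 and 14, the 6 libraries alone gave 4 in the first comparison, and leaving out 1 library gave 0 to 45, 0 to 44 and 0 to 1. Leaving out hypoplastic libraries 1 and 2, chosen after seeing the data, gave 2 and 1 in the first 2.

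Nothing in the labels pairs lungs by replicate number. Deviations from group means correlated at -0.282 to 0.227 for same-numbered libraries of different groups, and at -0.439 to 0.389 for those with other numbers. Under the replicate block, 2 genes were called in hypoplastic against control, 0 of them among the 8, and 0 in the other comparisons.

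Reversals were of changes near 0, of those resting on single libraries, and of those of Agtr2, which rest on hypoplastic libraries 1 and 2. In hypoplastic against control with 1 library left out, Agt ran from -0.07 to 0.91 and Agtr1a from -0.14 to 0.62. In treated against hypoplastic Agt ran from -0.77 to 0.44 and Agtr1a from -0.62 to -0.067. In treated against control Agt ran from -0.13 to 0.73, Agtr1a from -0.50 to 0.26, Atp6ap2 from -0.12 to 0.11 and Enpep from -0.039 to 0.050, and Enpep was -0.00124 with the sex term. Without hypoplastic libraries 1 and 2, Agt was -0.072 and 0.443 in the first 2 comparisons and the fitted Agtr2 values, which rest on 1 count, were -3.28 and 2.24. The cause was not tested. DESeq2 adjusted p-values were under 0.05 for Bdkrb2 and Egr1 in hypoplastic and for Ccn2 and Egr1 in treated against control lungs. With 3 lungs per group and a common biological coefficient of variation of 0.253, changes of the size seen for Ace, Atp6ap2 and Agtrap were not resolved.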
